A study of Arabidopsis thaliana with 6 samples.

Results

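The transcripts of 3 genes of phenylpropanoid metabolism were followed over genotype and leaf age in Arabidopsis thaliana: AT3G13610, the feruloyl-CoA hydroxylase of scopoletin synthesis, and the glycosyltransferases UGT72E1 and UGT73B5. They are 3 of the 13356 genes that the platform annotation gives a probe set of their own, and each is read by 1 probe set on an Affymetrix expression array. The samples were mature rosette leaves from 2 genotypes, wild type (WT) and the triple mutant mlo2 mlo6 mlo12, grown under normal conditions and collected 5, 6 or 7 weeks after sowing. The series belongs to a study of antifungal defence in mlo2 plants. MLO genes encode membrane proteins, and plants that lack them resist infection by powdery mildew fungi. Each genotype and age had 1 array, 6 in all and 3 per genotype. Nothing in the labels gives the number of plants behind an array or separate cultures. Errors and p-values thus reflect only how far these 6 arrays scatter, which may be technical. Standard errors (SE) are moderated (limma), so the variance of a probe set is drawn towards that of all probe sets.

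Scopoletin is a coumarin, a fluorescent phenolic made from feruloyl-CoA, an intermediate of the phenylpropanoid pathway that also supplies lignin precursors. AT3G13610, which RefSeq also lists as F6'H1, encodes the 2-oxoglutarate-dependent dioxygenase that hydroxylates feruloyl-CoA on the way to scopoletin. Coumarins are known as antimicrobial compounds of leaves and as iron-mobilising compounds secreted by roots. UDP-dependent glycosyltransferases (UGTs) attach sugars to small molecules, and the sugar conjugates are commonly stored in the vacuole. UGT72E1 can glucosylate coniferyl and sinapyl aldehydes, which are aldehydes of the lignin pathway. UGT73B5 belongs to a stress-inducible group of UGTs linked with the response to oxidative stress and bacterial infection.

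AT3G13610 and UGT72E1 were picked because their mutant minus WT differences, averaged over the ages, had been among those of smallest unadjusted p in an earlier analysis of these arrays. UGT73B5 came from a list of detoxification genes whose values were then known. The genotype values below are therefore descriptions without a test, and steady differences over age are what such a choice favours. Values are deposited RMA values, on a log2 scale on which a step of 1 is a doubling of signal. RMA makes array distributions alike, so levels are relative to the rest of the transcripts on an array. In whole leaves, fewer cells of a type and less RNA per cell cannot be told apart.

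The array medians lay between 3.798 and 3.873, and values ran from 1.72 to 13.4. The 6-week WT array was the least like the others, with a mean correlation of 0.970 with the other 5, against 0.975 to 0.982 for the rest. The 4 measured leaf markers of 6 listed lay between 9.69 and 12.7 on every array. The 3 measured root markers of 5 listed lay between 2.31 and 4.71. The platform annotation gave no listed flower marker and none of MLO2, MLO6 and MLO12 a probe set of its own. It did not list 8730 of the 22746 tested probe sets, and probes for these genes may be among them. Transcripts of the mutated genes therefore offered no check of which genotype an array came from.

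AT3G13610 was higher in the mutant at each age. From 5 to 7 weeks the WT arrays gave levels of 6.05, 6.45 and 5.45, and the mutant arrays gave 7.53, 8.39 and 7.02. The lowest mutant array was thus 0.56 above the highest WT array, and the groups did not overlap. Within an age the mutant exceeded WT by 1.48, 1.94 and 1.56, or 2.80-fold, 3.83-fold and 2.96-fold. The mean difference was 1.66 ± 0.14 (SE, 3 arrays per genotype), 3.16-fold, and 10 of the 22746 tested probe sets had a larger estimate. A difference of at least 1 in the same upward direction at all 3 ages was present in 0.0703% of tested probe sets, 16 in all. The rank and this share rest on the contrast by which the gene was chosen, so nothing is read from them. Without the 6-week arrays the mean difference was 1.52.

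**Figure D1:**
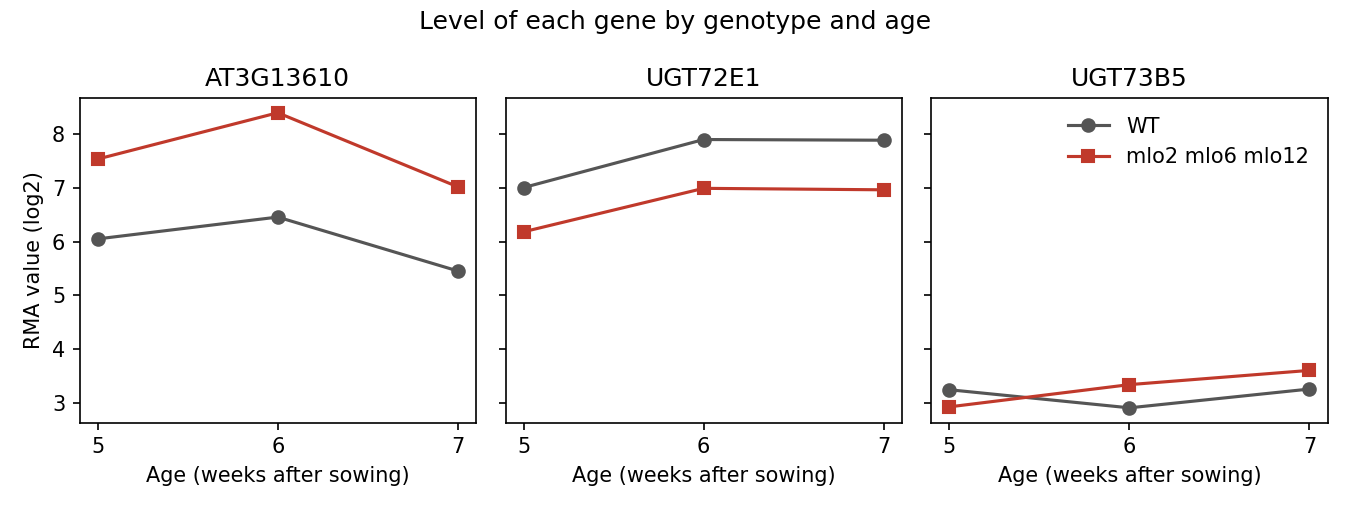
RMA value (log2, vertical axis) of AT3G13610, UGT72E1 and UGT73B5 against age in weeks, with 1 array per point; circles are WT and squares the mlo2 mlo6 mlo12 mutant. AT3G13610 lies higher in the mutant and peaks at 6 weeks in both genotypes, UGT72E1 lies lower in the mutant, and the lines of UGT73B5 cross between 5 and 6 weeks.

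UGT72E1 differed in the opposite direction. WT leaves gave 7.00 at 5 weeks, 7.89 at 6 weeks and 7.88 at 7 weeks, where mutant leaves gave 6.18, 6.99 and 6.96. All mutant arrays lay below all WT arrays, but by 0.0143 between the 5-week WT array and the 6-week mutant array, because the gene was also higher at the later ages. Compared within an age, WT was above the mutant by a similar amount each time. The mutant minus WT difference was -0.82, -0.91 and -0.92, or 1.77-fold, 1.87-fold and 1.89-fold higher in WT. Its SD over the ages was 0.054, and the mean was -0.88 ± 0.10 (moderated SE, 3 arrays per genotype).

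UGT73B5 showed no such separation. In order of age, its WT levels were 3.25, 2.91 and 3.26, and its mutant levels 2.93, 3.34 and 3.61. The groups overlapped, and each of these values was below the median of its own array, a range in which RMA compresses differences. The mutant minus WT difference was -0.32 at 5 weeks and 0.43 and 0.35 at the later ages. The mean of 0.15 ± 0.19 (SE, 3 arrays per genotype) was smaller than its error, and it was 0.014 without the 6-week arrays and 0.39 without a 5-week array. The SD of the difference over the ages, 0.41, was the largest of the 3 genes.

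Of the 3 genes 1 had all mutant arrays above all WT arrays, a pattern found in 3.42% of tested probe sets. The reverse separation was also found in 1 gene and in 5.5% of probe sets. Since the genes were chosen on this contrast, nothing is read from these counts. The averaged genotype fit itself called 0 of 22746 probe sets at an adjusted p of 0.05 (limma), with 1482 (6.52%) at an unadjusted p under 0.05. With limma-trend it called 1.

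The age course was not used to choose the genes, although its error comes from the same fit as that of the genotype difference. AT3G13610 was higher at 6 than at 5 weeks, by 0.41 in WT and 0.86 in the mutant. From 6 to 7 weeks it was lower by a change of -1.001 in WT and -1.38 in the mutant. A level higher at 6 weeks than at both other ages in both genotypes occurred in 14.9% of tested probe sets. A difference of -1 or below from 6 to 7 weeks in both genotypes was much less common, at 0.193%. These steps rest on 1 array per genotype and age, and the sizes counted here and for UGT72E1 were set after the values had been seen.

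UGT72E1 followed another course. It was 0.89 higher at 6 than at 5 weeks in WT and 0.81 higher in the mutant, and then differed by -0.013 and -0.027 from 6 to 7 weeks. A step of at least 0.8 from 5 to 6 weeks in both genotypes was found in 1.57% of probe sets. UGT73B5 moved by -0.34 in WT and 0.41 in the mutant from 5 to 6 weeks, and by 0.35 and 0.26 from 6 to 7 weeks, so that its first step differed in sign between the genotypes.

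Between 5 and 7 weeks, averaged over genotypes, none of the 3 genes passed the adjusted threshold of 0.05, which 0% of the 22746 probe sets passed in limma. At an unadjusted p under 0.05 were 3691 probe sets, or 16.2%. UGT72E1 was 0.83 ± 0.13 (SE) higher at 7 weeks, 1.78-fold, with an adjusted p of 0.0912 in limma, and it was higher in both genotypes (0.88 in WT and 0.78 in the mutant). The adjusted p was 0.0309 (limma) without the 6-week arrays, and 1755 probe sets passed in that fit. Leaving them out keeps the estimate and changes only its error. That error rests in part on how alike the genotype differences at 5 and 7 weeks are, which the choice of UGT72E1 favours. Over all the alternatives the adjusted p of UGT72E1 ran from 0.0309 to 0.654. AT3G13610 was at -0.56 ± 0.17, 1.47-fold lower at 7 weeks, with an adjusted p of 0.217 in limma and changes of -0.60 in WT and -0.52 in the mutant. UGT73B5 was at 0.35 ± 0.23 with an adjusted p of 0.582 in limma. WT leaves differed by 0.013 between these ages and mutant leaves by 0.68, and the estimate was -0.0081 without the 5-week mutant array. Anything shared by both arrays of an age, such as a harvest or hybridization day, cannot be told apart from leaf age.

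**Figure D2:**
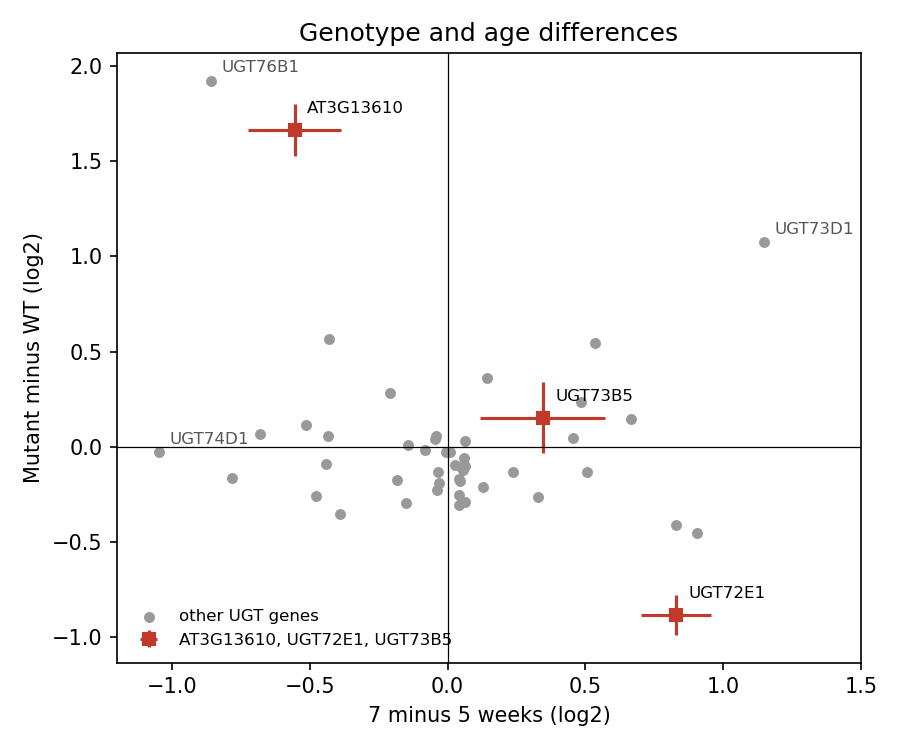
Mutant minus WT difference (log2, vertical axis, mean over ages) against the 7 minus 5 week difference (log2, horizontal axis, mean over genotypes). Red squares with bars of 1 SE are AT3G13610, UGT72E1 and UGT73B5, and grey points are the other 45 UGT genes. AT3G13610 combines a positive genotype with a negative age estimate (1.66 and -0.56), and UGT72E1 the reverse (-0.88 and 0.83).

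The genotype difference of AT3G13610 and of UGT72E1 moved by at most 0.10 between the 5-week and the 7-week pair of arrays. The change of mutant minus WT from 5 to 7 weeks was 0.08 for AT3G13610, with an SE of 1.09 when age was a straight line and 0.42 when age was a factor. The shared peak at 6 weeks goes into the first of these errors. For UGT72E1 the change was -0.10, with SEs of 0.56 and 0.34. For UGT73B5 it was 0.66, with SEs of 0.40 and 0.42. These values are related to the contrast on which the genes were chosen and are given without a test.

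The other measured genes of scopoletin and coumarin metabolism had smaller genotype estimates than AT3G13610, which had been chosen on this contrast. Of 11 listed genes the annotation gave 5 a probe set of their own, and their genotype estimates ran from -0.19 to 0.22. Of these 3 were above 0, with a median of 0.11, against 43.7% above 0 and a median of -0.025 over all tested probe sets. AT1G55290, listed by RefSeq as F6'H2, encodes an enzyme that can catalyse the same hydroxylation. It was between 3.31 and 3.60 on all arrays, below the array medians, with an estimate of 0.11 ± 0.11. BGLU42, a beta-glucosidase that acts on scopolin-type glucosides in roots, was at 0.22 ± 0.14. UGT71C1 was at -0.11 ± 0.12, AT3G12900 at -0.19 ± 0.12 and AT1G28680 at 0.22 ± 0.22. UGT71C1 lay between 2.58 and 2.85, below the array medians, and AT3G12900 between 3.58 and 4.04, near them. None of the 5 passed in either comparison, and their 7 minus 5 week estimates lay between -0.0045 and 0.18.

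Iron-response genes were examined because coumarin synthesis is tied to iron deficiency in roots. Of 17 listed genes 4 were measured, and 1 of 4 genotype estimates was above 0 (median -0.13), beside 43.7% of all probe sets. PYE, a transcription factor of the iron deficiency response, was at 0.10 ± 0.16. BHLH101, another iron-response transcription factor, was at -0.34 ± 0.39, with differences of -0.45, 0.71 and -1.29 at the 3 ages. AT1G47400 was at -0.19 ± 0.44 and AT1G74770 at -0.06 ± 0.13. None of the 4 passed for genotype or age.

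Upstream and in the lignin branch, the annotation gave a probe set of its own to only HCT of the 12 listed general phenylpropanoid genes. This transferase, which makes shikimate esters of p-coumarate, gave WT levels of 8.72, 8.73 and 8.38 and mutant levels of 8.91, 8.75 and 8.32 in order of age. The genotypes overlapped, with a difference of 0.05 ± 0.11, and the age estimate was -0.47 ± 0.14 (adjusted p = 0.211, limma). Of 19 monolignol and sinapate genes 8 were measured. Their genotype estimates had a median of 0.11, with 6 above 0, beside 43.7% of all probe sets. The peroxidase gene PRX52 had the highest, 0.50 ± 0.24, with WT levels of 3.35, 3.79 and 3.74 and mutant levels of 3.26, 4.32 and 4.80. ALDH2C4, the dehydrogenase that makes ferulate and sinapate from their aldehydes, was at 0.16 ± 0.23. UGT84A1, UGT84A3 and UGT84A4, which make glucose esters of hydroxycinnamic acids, were at -0.30 ± 0.14, 0.07 ± 0.15 and 0.28 ± 0.13. All mutant arrays lay above all WT arrays for 1 of the 8, CCR2 of the cinnamoyl-CoA reductases, at 0.20 ± 0.11, where 3.42% of all probe sets did so. They lay below for 2, UGT84A1 and the beta-glucosidase gene BGLU45 (-0.10 ± 0.10), beside 5.5% of all probe sets. CCR2, UGT84A1 and BGLU45 were below the array medians throughout, as was BGLU46, at 0.05 ± 0.10. None passed in either comparison.

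The closest family members of UGT72E1 had genotype estimates nearer to 0, which the choice of UGT72E1 on this contrast favours. UGT72E2 and UGT72E3, which can glucosylate monolignols, were at 0.15 ± 0.20 and -0.19 ± 0.10. UGT72E3 lay between 2.504 and 2.861 on all arrays, below the array medians, and its difference was -0.18, -0.19 and -0.19 at the 3 ages. It was the 1 relative with all mutant arrays below all WT arrays, beside 5.5% of all probe sets. UGT72E2 had WT levels of 3.99, 4.39 and 4.37 and mutant levels of 4.06, 4.13 and 5.01, with overlapping groups. GT72B1, also called UGT72B1, which conjugates xenobiotic phenols and anilines, gave WT levels of 6.94, 7.65 and 7.96 and mutant levels of 8.02, 7.85 and 8.37. Its estimate was 0.56 ± 0.20. The other measured relatives were UGT72B3 at -0.13 ± 0.19, AT1G01390 at 0.20 ± 0.13 and AT4G36770 at -0.13 ± 0.18. Of the 6 measured UGT72 relatives of 8 listed, 3 were above 0 for genotype (median 0.0074) and 5 for age (median 0.32). Over all tested probe sets 43.7% and 48.6% were above 0. None of the 6 passed in either comparison.

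Among 6 measured UGT73 relatives of 12 listed, UGT73D1 had the highest genotype estimate, at 1.08 ± 0.22. Its WT levels were 2.83, 3.49 and 3.58 and its mutant levels 3.70, 4.18 and 5.25. All mutant arrays thus lay above all WT arrays, beside 3.42% of all probe sets. The WT levels and the 5-week mutant level were below their array medians. UGT73D1 had an age estimate of 1.15 ± 0.27, with an adjusted p of 0.154 in limma. UGT73B4, the next protein-coding gene after UGT73B5 on the chromosome and a member of the same group, was at -0.30 ± 0.12. It lay between 2.58 and 3.31, near the range of UGT73B5, and its difference was -0.19, -0.48 and -0.24. UGT73B1 was at -0.18 ± 0.15, UGT73C1 at -0.03 ± 0.10, UGT73C2 at -0.09 ± 0.11 and UGT73C7 at -0.10 ± 0.11. The median of the 6 relatives was -0.097 for genotype, with 1 above 0, and 0.043 for age, with 6 above 0. The shares above 0 over all tested probe sets were 43.7% and 48.6%. UGT73B4, UGT73C1, UGT73C2 and UGT73C7 were below the array medians throughout. GSTU25, the only measured gene of 9 in the chemical and oxidative stress list, was at -0.02 ± 0.11 and lay between 2.14 and 2.39.

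Across the 47 genes whose symbol names them as UGTs, genotype estimates were above 0 for 17 (36.2%) and below 0 for 30. Their median was -0.094, against 43.7% above 0 and a median of -0.025 over all tested probe sets. Levels ran from 2.06 to 9.89, so some of these genes lay below the array medians. UGT72E1 had the lowest genotype estimate of the 47, followed by UGT71C5 at -0.45 ± 0.17 and UGT85A5 at -0.41 ± 0.16. UGT73B5 ranked eighth from the top. The ranks of UGT72E1 and UGT73B5 rest on values known when these genes were chosen. At the upper end were UGT76B1, a glucosyltransferase of isoleucic and salicylic acid, at 1.92 ± 0.24, UGT73D1, and UGT78D1, a flavonol rhamnosyltransferase, at 0.57 ± 0.18. With age 26 of 47 were above 0 (median 0.040, against 48.6% and -0.0068 over all probe sets). At an unadjusted p under 0.05 for age were 6 higher and 5 lower, beside 7.89% and 8.34% of all probe sets, and 0 passed after adjustment (limma). UGT73D1, UGT71C5 (0.91 ± 0.21) and UGT72E1 had the highest age estimates. UGT74D1 (-1.05 ± 0.31), UGT76B1 (-0.86 ± 0.29) and UGT88A1 (-0.78 ± 0.21) had the lowest.

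**Figure D3:**
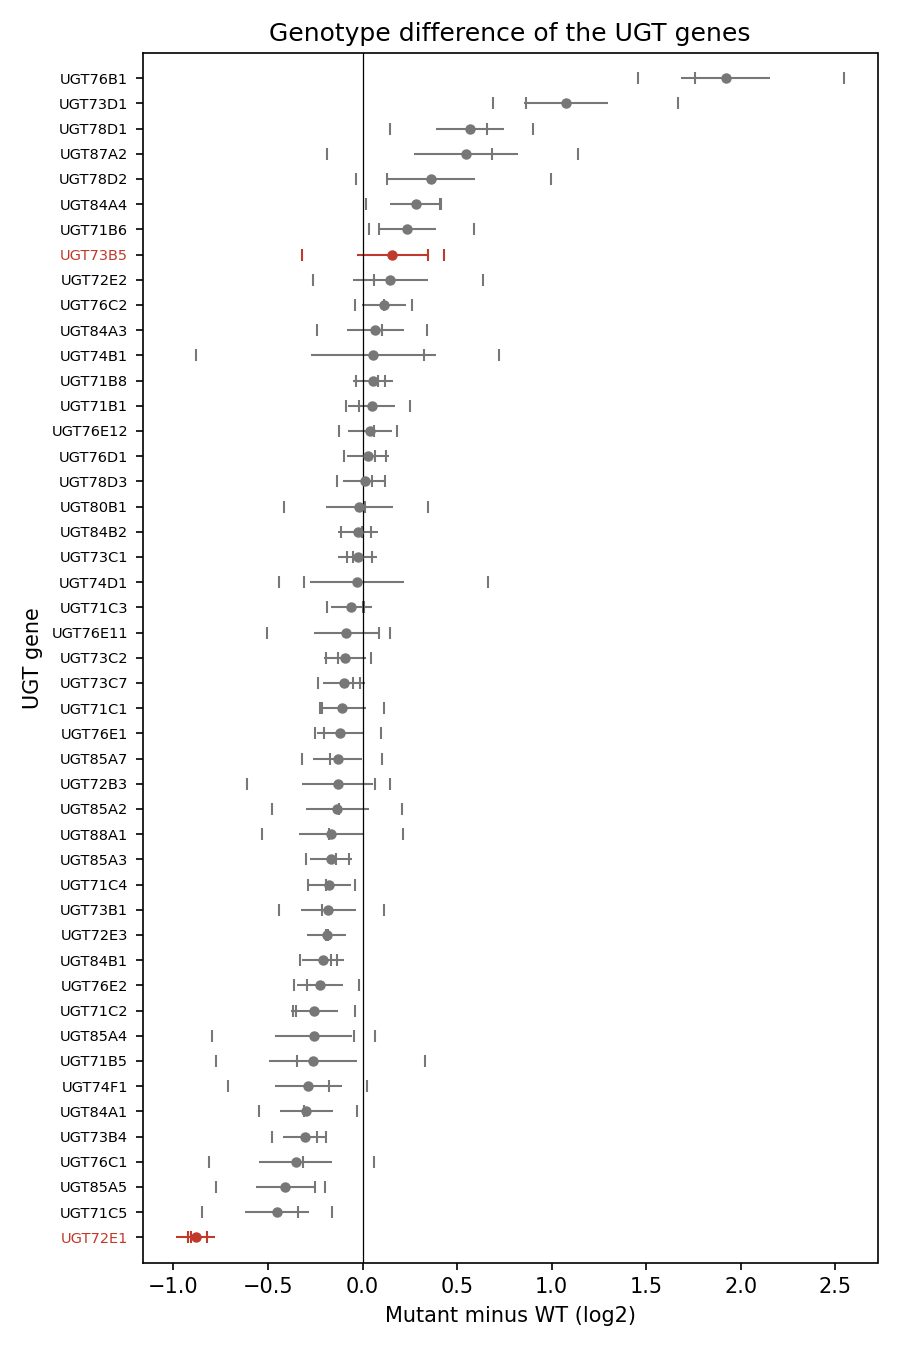
Mutant minus WT difference (log2, horizontal axis) of the 47 UGT genes, ordered by their mean. Points are means over the 3 ages with bars of 1 SE, and ticks are the differences at single ages; UGT72E1 and UGT73B5 are in red. UGT72E1 is at the lower end with ticks close together (-0.82 to -0.92), and the ticks of UGT73B5 lie on both sides of 0.

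Genes with the most similar profiles were ranked by the root-mean-square (RMS) difference between log2 values centred on each gene's own mean over the 6 arrays, among 13355 other genes. Nearest to AT3G13610 were AT1G33950 (RMS 0.30), the subtilase gene SBT3.5 (0.32), AT5G52810 (0.34), AT5G39670 (0.34) and AT1G43910 (0.39), against a median of 0.996 for all genes. All 5 were highest in the 6-week mutant array, as was AT3G13610, which a choice by likeness favours. Nearest to UGT72E1 were AT2G46490 (RMS 0.136), the brassinosteroid-responsive RING-H2 gene BRH1 (0.137), AT3G12040 (0.141), AT4G28240 (0.158) and AT1G26800 (0.162), against a median of 0.593. These shared the lowest value in the 5-week mutant array, which the choice likewise favours. Nearest to UGT73B5 were AT5G47250, AT1G49350, AT1G72700, AT3G47530 and AT1G27530, with RMS differences of 0.054 to 0.079 against a median of 0.313. Small distances are easier to reach for a gene that varies as little as UGT73B5, whose range over the arrays was 0.70. The profiles of AT3G13610 and UGT72E1 differed from each other by 1.41, more than from the median gene in either case.

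**Figure D4:**
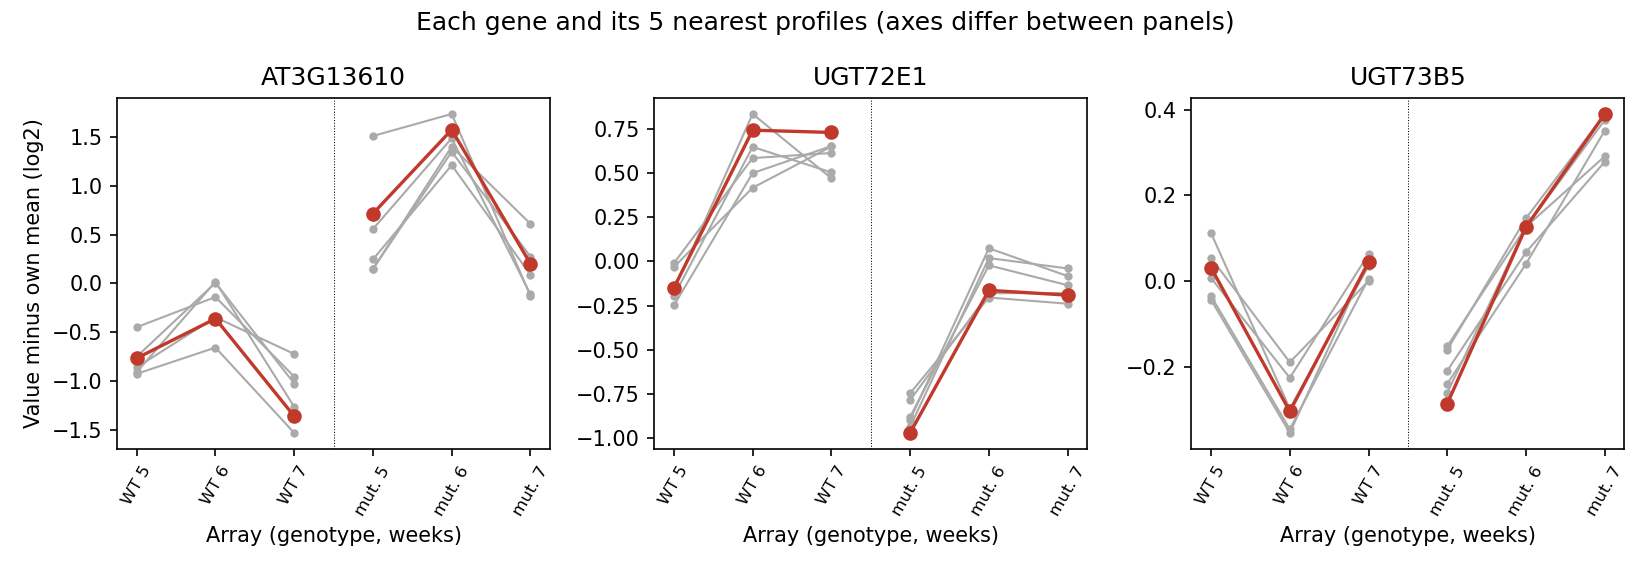
Log2 value minus the gene's own mean over the 6 arrays (vertical axis) by array, with WT left and mutant right of the dotted line and ages in weeks. Red lines are AT3G13610, UGT72E1 and UGT73B5, and grey lines are the 5 genes of smallest RMS difference to each; vertical scales differ between panels. The grey lines keep the peak at 6 weeks of AT3G13610 in both genotypes and the low 5-week arrays of UGT72E1. They were chosen for this likeness.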

How the data were processed

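The data were 1 table of log2 values for 22810 probe sets on 6 arrays. Per the submitters' processing notes the authors made these log2 values with RMA; its version is not given in the sources used here, and the scale was inferred from the size of the values. The number of arrays limits the precision. After 64 control probe sets were set aside, 22746 were tested. The platform annotation gave 13513 of them to 1 gene, 503 to several and did not list 8730, which are unnamed here. Names were updated by gene identifier through RefSeq (TAIR10.1), which matched 13436.

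Linear models were fitted with limma 3.58.1 (R 4.3.3), checked on simulated data: genotype plus age as a factor for the genotype and age differences, and age as a number for the interaction, each with 2 residual degrees of freedom. P-values were adjusted over all tested probe sets (Benjamini-Hochberg, 0.05). Where a gene had several probe sets, that of the highest mean was used. Members, gene lists and the rule for naming genes (all measured genes of the pathway and family lists, the 3 highest and lowest UGTs per comparison, the 5 nearest profiles per gene) were chosen with earlier results of these data known. Alternatives were variance moderation, normalization, a filter on dim probe sets, the age term and left-out arrays.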

Additional observations from a re-analysis of the deposited data

How the results depend on the processing

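The genotype estimates of the 3 genes kept their direction in each alternative that gave a value. With 1 array left out they ranged from 1.52 to 1.75 for AT3G13610, from -0.91 to -0.86 for UGT72E1 and from 0.014 to 0.39 for UGT73B5. The 7 minus 5 week estimates then ranged from -0.69 to -0.42, from 0.78 to 0.88 and from -0.0081 to 0.70; the last range includes a turned direction for UGT73B5, without the 5-week mutant array. Without both 6-week arrays UGT72E1 passed for age (0.83, adjusted p = 0.0309 in limma), and 1755 probe sets passed in all. Leaving out either of these arrays amounts to the same fit. The choice of UGT72E1 on its genotype difference favours a small error there. The age count was 258 with limma-trend, 249 among probe sets at or above the median level and 0 to 1755 with 1 array left out; over the alternatives the adjusted p of UGT72E1 ran from 0.0309 to 0.654. For genotype 1 probe set passed with limma-trend. With 1 array left out the change of the genotype difference from 5 to 7 weeks ranged from -2.16 to 2.31 for AT3G13610, from -1.005 to 0.81 for UGT72E1 and from -0.021 to 1.35 for UGT73B5. Leaving out a 5-week or 7-week array makes that value an extrapolation from the 6-week array. UGT73B5 falls among the dim probe sets and has no value under that filter. A search of promoters for motifs was not run. The labels give no replicate numbers, and age as a term of the model pairs the arrays of the genotypes; without that term the genotype estimates of the 3 genes are the same.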

Other observations

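UGT73B2 and UGT73B3, stress-inducible relatives of UGT73B5, share 1 probe set and were in no comparison above. In order of age, its WT levels were 5.76, 5.75 and 6.43 and its mutant levels 5.82, 6.79 and 6.90. The mutant minus WT difference was 0.06, then 1.04, then 0.47, with a mean of 0.52 ± 0.21 (SE, 3 arrays per genotype), and the genotypes overlapped. As for UGT73B5, the difference was larger at 6 and 7 weeks than at 5 weeks, at a level above the array medians. UGT73B4 and UGT73B1, which have probe sets of their own, had lower differences at the later ages. These were -0.19, -0.48 and -0.24 for UGT73B4 and 0.11, -0.44 and -0.21 for UGT73B1. Which of UGT73B2 and UGT73B3 gave the shared signal cannot be told apart.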
